A study of Mus musculus with 15 samples.

Results

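The luminal epithelium of 2 kinds of Notch1-overexpressing mice, named U-OEx and E-OEX in the labels, was compared. Luminal epithelium (LE) is the sheet of cells that lines the uterine cavity, and the glandular epithelium (GE) forms the glands beneath it. The comparison used 6 of the 15 libraries of the series, 3 of U-OEx LE and 3 of E-OEX LE, and its members were chosen by tissue and group name. The remaining 9 libraries were wild-type LE, wild-type GE and E-OEX GE, with 3 each. All 6 libraries compared here came from day 4 and carry the same genotype label, overexpression of Notch1, so the overexpression is shared by both groups and no control without it stands in the contrast. The labels do not say what U-OEx and E-OEX abbreviate. The promoter or Cre driver, the strain, the age of the mice and any pooling of animals are not given in the sources used here. Nothing in the labels says that the libraries of a group came from separate animals, so the p-values measure only the spread between these samples, which may be technical.

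For U-OEx the tables listed 27946 genes, for E-OEX they listed 4903, and 4676 genes were in both, which is 95.4% of the E-OEX list and 16.7% of the U-OEx list. The E-OEX list holds genes with at least about a 2-fold difference between E-OEX GE and E-OEX LE (3133 higher in GE, 1770 higher in LE), so the comparison covers genes selected in that way and no others. A value below is a read count recovered from the deposited table and rescaled so that the 6 libraries are comparable. It is not divided by gene length, so it ranks samples and not genes. Of the 4676 shared genes, 4275 had a mean value of at least 1 and were tested with limma on log2(value + 1), with Benjamini-Hochberg adjustment over all of them and a threshold of 0.05. Reads in the shared genes ranged from 1980646 to 2527687 a library. Differences are U-OEx LE minus E-OEX LE on that log2 scale, given with their standard error (SE), and values are listed in the order of replicates 1, 2 and 3. In bulk samples like these, fewer cells of a type and less RNA per cell cannot be told apart.

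Of the 4275 genes, 298 (6.97%) were higher in U-OEx LE and 344 (8.05%) were lower, 15% in all, which is the share beside which the share called in each gene list below stands, and the median difference over all tested genes was 0.06, or 0 with genes at the floor set to their bound. For 1633 genes (38.2%) the 3 values of one group did not overlap with those of the other, and 640 of the 642 genes past the threshold were among them. The calls were large, since the log2 difference was at least 1 in 641 of the 642. E-OEX LE was at the detection floor of 3 reads in every library in 47 of the called genes, and U-OEx LE in 63. Emcn, at the floor in both groups, is in both counts. A fold given below as "at least" divides the mean of the other group by the value of 3 reads. It bounds only the floored side, and a single high library can raise the mean of the other group. The E-OEX LE libraries spread more widely than the U-OEx LE libraries: over the called genes the median standard deviation (SD) of log2(value + 1) was 0.83 in E-OEX LE and 0.48 in U-OEx LE. Replicate 1 of E-OEX LE lay nearest to U-OEx LE. It had the highest E-OEX LE value in 245 of the 298 higher genes and the lowest in 209 of the 344 lower genes. The median value of the higher genes was 194, 147 and 187 in U-OEx LE and 47.8, 15.1 and 12.2 in E-OEX LE. For the lower genes the medians were 21.2, 35.2 and 22.2 in U-OEx LE and 164, 212 and 391 in E-OEX LE.

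The number of calls depended on single libraries. Without U-OEx LE replicate 1, 2 or 3 the test called 60, 353 and 97 genes, and without E-OEX LE replicate 1, 2 or 3 it called 904, 340 and 334. Among the 155 called genes chosen for naming, 28 stayed past the threshold whichever library was left out and under every alternative that gave them a value. Without U-OEx LE replicate 1, 126 of the 155 were not past it. The corresponding numbers were 66 and 112 without U-OEx LE replicates 2 and 3, and 10, 68 and 61 without E-OEX LE replicates 1, 2 and 3. With all 6 libraries kept, 85 of the 155 were not past it with no filter on low values, 40 with edgeR and 1 with DESeq2. Each paragraph below says which of its calls held when a library was left out. Calls lost only under other alternatives are not listed there.

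**Figure D1:**
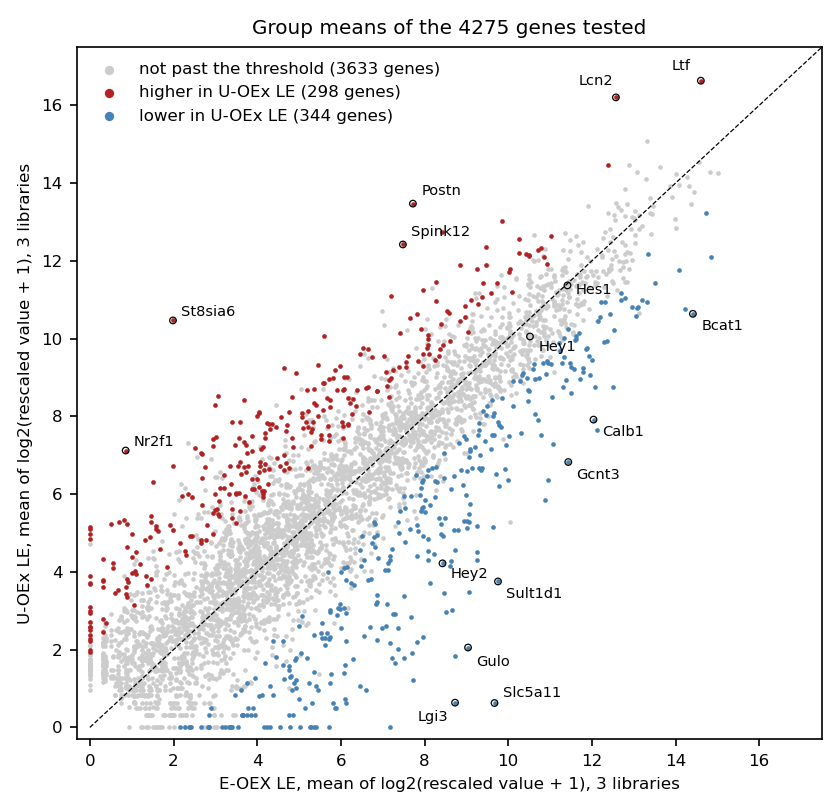
Each point is 1 of the 4275 genes tested, placed by its mean log2(rescaled value + 1) over 3 E-OEX LE libraries (horizontal) and 3 U-OEx LE libraries (vertical); the dashed line marks equal means. The 298 genes higher in U-OEx LE lie above the line and the 344 lower genes below it, and Hes1 and Hey1 lie close to it.

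Notch receptors are cut when a ligand on a neighbouring cell binds them, and the freed intracellular domain enters the nucleus. There it joins the DNA-binding protein RBPJ and switches on targets, among them the Hes and Hey repressors. Ligands of the Delta-like and Jagged families start the signal, Fringe enzymes such as Lfng modify the receptor's sugars, and Deltex and Numb proteins act on its trafficking. In the uterus, the luminal epithelium takes in estrogen and progesterone signals before implantation, secretes fluid and defence proteins, and moves ions and nutrients across the lining.

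The promoters of Notch pathway genes that passed the test and hold the RBPJ-type motif are shown because they differ in direction: Hes5 and Hey2 were lower in U-OEx LE, and Lfng was higher. Each line gives the 250 bases before the gene start, 5′ to 3′ on the gene's strand, from RefSeq (GRCm38.p6), with matches to GTGGGAA or its reverse complement TTCCCAC in capitals. The windows are chr4:154960673-154960922, + strand, for Hes5, chr10:30842784-30843033, - strand, for Hey2, and chr5:140607091-140607340, + strand, for Lfng.
Hes5: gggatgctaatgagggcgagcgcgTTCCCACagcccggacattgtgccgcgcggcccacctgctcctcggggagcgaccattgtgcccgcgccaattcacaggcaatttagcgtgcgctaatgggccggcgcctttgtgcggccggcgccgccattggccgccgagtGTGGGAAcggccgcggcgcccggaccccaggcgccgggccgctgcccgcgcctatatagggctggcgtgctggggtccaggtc
Hey2: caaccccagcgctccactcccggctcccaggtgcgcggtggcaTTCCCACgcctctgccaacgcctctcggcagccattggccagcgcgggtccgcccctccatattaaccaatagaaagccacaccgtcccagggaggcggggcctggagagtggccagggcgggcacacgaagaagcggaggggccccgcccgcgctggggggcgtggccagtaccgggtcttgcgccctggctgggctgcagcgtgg
Lfng: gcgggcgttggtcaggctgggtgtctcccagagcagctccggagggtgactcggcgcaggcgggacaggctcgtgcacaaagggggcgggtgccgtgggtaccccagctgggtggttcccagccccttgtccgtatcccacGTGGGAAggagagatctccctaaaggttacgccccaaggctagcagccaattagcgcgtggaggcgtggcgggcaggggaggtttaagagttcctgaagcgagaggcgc
Hes5 had 2 matches, which began 226 and 83 bases before the gene start. Hey2 had 1 at 207 bases and Lfng had 1 at 109 bases. The windows of Dtx1 and Il2ra, which also passed the test, had no match to these letters. Over all 32851 RefSeq windows of this length, 1779 (5.42%) held a match. Of the 21 Notch pathway genes tested, 14 were in the promoter table and 5 of them matched (Lfng, Psen2, Hes5, Hes7 and Hey2). A match is a description of the sequence and not evidence of a bound site.

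Notch1 itself could not be compared. It was listed in the U-OEx tables only, with deposited values of 2913, 3524 and 2789, and it was not analysed in E-OEX LE. Among 3 ligand genes tested (8 in the list, 3 listed in both sets of tables), none passed the threshold. Jag2, a Jagged ligand, had values of 53.9, 128 and 97.2 in U-OEx LE and 160.4, 293 and 336 in E-OEX LE, and its difference was -1.51 (95% confidence interval -2.57 to -0.45, limma adjusted p = 0.0616). Dll4 differed by -0.69 (95% confidence interval -1.63 to 0.24, limma adjusted p = 0.275) and Dll1 by 1.81 (95% confidence interval 0.34 to 3.27, limma adjusted p = 0.0895). All 3 Jag2 values of U-OEx LE lay below those of E-OEX LE, and the Dll1 values lay above them, but neither gene passed. Notch4, the one receptor gene tested, overlapped between the groups, with a difference of 0.27 (95% confidence interval -0.80 to 1.34, limma adjusted p = 0.73).

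Of 6 modulators of the pathway tested, Lfng and Dtx1 were higher in U-OEx LE. Lfng, the Fringe glycosyltransferase, had values of 228, 165 and 278 in U-OEx LE and 117, 52.5 and 57.3 in E-OEX LE, with no overlap. The difference was 1.61 ± 0.44, limma adjusted p = 0.042. Dtx1, a Deltex ubiquitin ligase, had 168, 148 and 131 in U-OEx LE and 55.0, 40.2 and 9.75 in E-OEX LE, a difference of 2.36 ± 0.62, limma adjusted p = 0.0379. Every U-OEx LE value of Dtx1 was above every E-OEX LE value. Neither call held with each library left out in turn, since the highest limma adjusted p was 0.165 for Lfng and 0.147 for Dtx1. Mfng, Dtx3, Numbl and Psen2 did not pass, with differences of 1.79 (limma adjusted p = 0.143), 0.47 (limma adjusted p = 0.283), -1.25 (limma adjusted p = 0.153) and -0.32 (limma adjusted p = 0.527).

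The Notch target genes that passed did not share a direction. Of 19 in the list, 12 were listed in both sets of tables and 11 were tested. Of these, Hey2 and Hes5 were lower in U-OEx LE, Il2ra was higher and 8 did not pass, and the median of the list was 0.10 beside 0.06 over all genes tested. Hey2, a repressor of the Hairy family, had values of 19.2, 19.2 and 14.8 in U-OEx LE and 261, 185 and 837 in E-OEX LE, a difference of -4.21 ± 0.58, limma adjusted p = 0.00592. The groups were far apart, and the call held under every alternative and whichever library was left out. Hes5, also a Hairy-family repressor, had 11.5, 15.6 and 24.1 in U-OEx LE and 84.7, 80.4 and 50 in E-OEX LE, with a difference of -2.03 ± 0.49, limma adjusted p = 0.0296. Its values did not overlap, and its highest adjusted p by limma was 0.131 with 1 library left out. Il2ra, the alpha chain of the interleukin-2 receptor, had 88.5, 16.5 and 32.4 in U-OEx LE and 1.80, 0 and 1.22 in E-OEX LE. The E-OEX LE libraries were all at the floor, so it was at least 14.1-fold higher in U-OEx LE (limma adjusted p = 0.0108), or at least 7.55-fold without U-OEx LE replicate 1, and with 1 library left out the highest adjusted p was 0.0625.

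Hes1 and Hey1, further repressors of these families, did not pass. Hes1 had 2857, 2736 and 2364 in U-OEx LE and 1977, 3403 and 3032 in E-OEX LE, a difference of -0.05 (95% confidence interval -0.76 to 0.67, limma adjusted p = 0.94). Hey1 had 930.5, 1348 and 957 in U-OEx LE and 1089.7, 2253 and 1287 in E-OEX LE, and differed by -0.47 (95% confidence interval -1.29 to 0.36, limma adjusted p = 0.41). The values of both genes overlapped, and the intervals still allow differences of about the size of their bounds. Heyl, the third Hey gene, had a U-OEx LE replicate 2 value of 771 beside 140 and 89.8 in the other two, and differed by 0.81 (95% confidence interval -1.06 to 2.68, limma adjusted p = 0.538). Myc, a growth-promoting transcription factor, differed by 0.10 (limma adjusted p = 0.898), Sox9 by 1.08 (limma adjusted p = 0.334), the cell cycle inhibitor Cdkn1a by 1.22 (limma adjusted p = 0.128), Gata3 by 1.99 (limma adjusted p = 0.184) and Hes7 by -0.20 (limma adjusted p = 0.91).

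**Figure D2:**
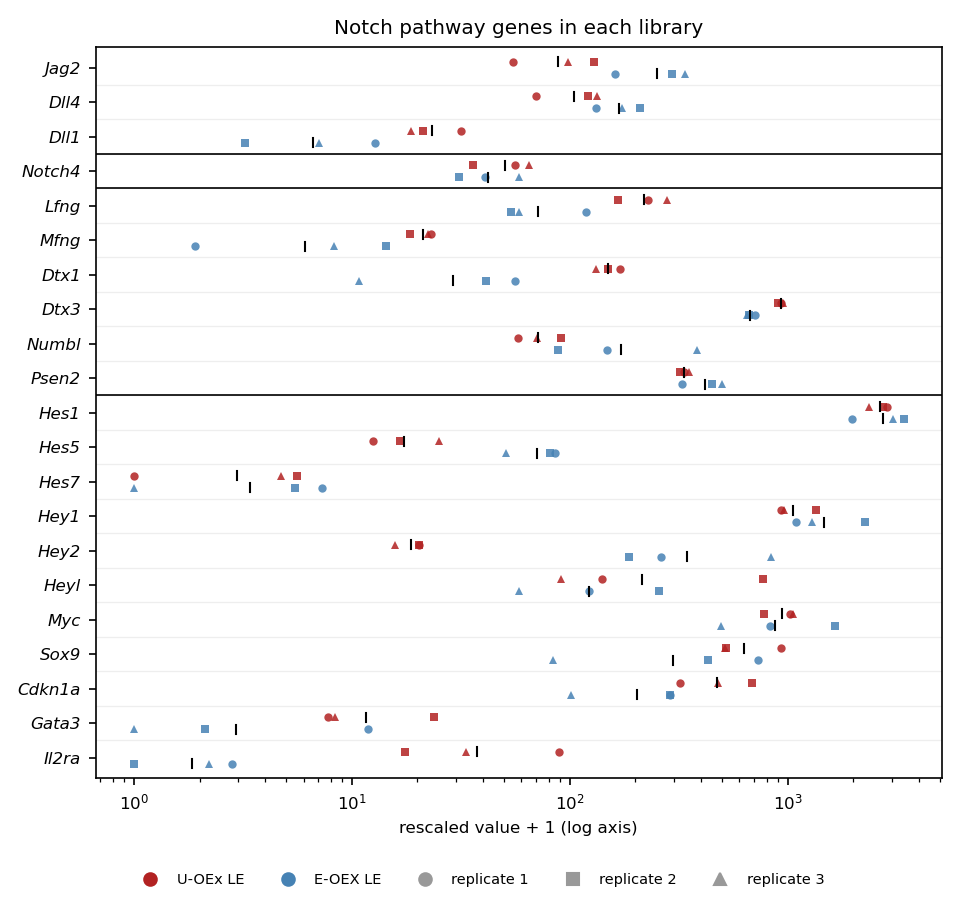
Rescaled value + 1 on a log axis for the 21 Notch pathway genes tested, in 3 U-OEx LE and 3 E-OEX LE libraries (symbols mark the replicate, short bars the geometric mean of value + 1 per group); lines separate ligands, the receptor, modulators and targets. Hey2 and Hes5 lie lower in U-OEx LE, Lfng, Dtx1 and Il2ra lie higher, and Hes1 and Hey1 overlap.

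Among the genes chosen for naming, the largest difference in favour of U-OEx LE was in St8sia6 (chr2:13651021-13794064, - strand), an enzyme that adds sialic acid to glycans, with values of 1121, 2241 and 1128 in U-OEx LE and 17.1, 0 and 2.44 in E-OEX LE. Its difference was 8.48 ± 0.92, limma adjusted p = 0.00335. Postn (chr3:54361109-54391037, + strand), the secreted matrix protein periostin, had 11758, 21460 and 5807 in U-OEx LE and 416, 156 and 143 in E-OEX LE, a difference of 5.75 ± 0.56, limma adjusted p = 0.00335. In both genes the smallest U-OEx LE value was more than 10-fold above the largest E-OEX LE value. Nr2f1 (chr13:78188973-78199757, - strand), an orphan nuclear receptor of the COUP-TF family, was at the floor in E-OEX LE, with 117, 161 and 139.7 in U-OEx LE and 1.80, 1.12 and 0 in E-OEX LE. It was at least 43.1-fold higher (limma adjusted p = 0.00335). These 3 calls held under every alternative.

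In Irx1, Spink12, Lef1, Blk, Antxrl and Phldb2, among the next genes by size with a U-OEx LE mean of at least 100, E-OEX LE replicate 1 had the highest E-OEX LE value. The homeobox factor Irx1 had 273, 453 and 242 in U-OEx LE and 64.0, 6.70 and 0 in E-OEX LE, the Kazal-type protease inhibitor Spink12 had 6671, 4249 and 5821 in U-OEx LE and 656, 359.6 and 23.2 in E-OEX LE, and the Wnt transcription factor Lef1 had 141, 181 and 214 in U-OEx LE and 17.1, 12.3 and 1.22 in E-OEX LE. The differences were 5.29 (limma adjusted p = 0.0274), 4.94 (limma adjusted p = 0.0185) and 4.45 (limma adjusted p = 0.0106). The Src-family kinase Blk ranged from 446 to 733 in U-OEx LE, while the E-OEX LE values fell apart into 199, 34.6 and 1.22. Antxrl, an anthrax toxin receptor-like gene, and Phldb2, which anchors microtubules at the cell cortex, had the same order, with 46.9, 4.47 and 1.22 and 96.4, 8.93 and 1.22 in E-OEX LE. Their U-OEx LE values were 453, 284 and 394 and 287, 391 and 365, and all of these values lay above those of E-OEX LE. The 3 other genes of the 12 with the largest differences under that limit were the predicted genes Gm17171 and Gm1965 and the uncharacterised 1700037F24Rik, with differences of 4.67, 4.45 and 4.46. With 1 library left out, the limma adjusted p of each of these calls rose to between 0.0652 and 0.155 at its highest.

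Among the genes lower in U-OEx LE, Slc5a11 (chr7:123214780-123273253, + strand), a sodium-coupled inositol transporter, had 0, 0.915 and 0.925 in U-OEx LE and 685, 187 and 4222 in E-OEX LE. It was at least 606-fold lower in U-OEx LE (limma adjusted p = 0.00335), or at least 155-fold without E-OEX LE replicate 3, and E-OEX LE replicate 3 carried most of its E-OEX LE mean. Lgi3 (chr14:70530685-70538324, + strand), a secreted leucine-rich repeat protein, had 0.962, 0.915 and 0 in U-OEx LE and 276, 178 and 1545 in E-OEX LE, which is at least 238-fold lower (limma adjusted p = 0.00335), or at least 80.9-fold without E-OEX LE replicate 3. Gsdmc2 (chr15:63824346-63845177, - strand), a gasdermin, had no read in any U-OEx LE library and 69.4, 210 and 201 in E-OEX LE, which is at least 57.1-fold lower (limma adjusted p = 0.00335). Gsdmc2 has close copies among the gasdermin C genes, and how reads were divided among them is not given in the sources used here. Slc5a11, Lgi3 and Gsdmc2 stayed past the threshold whichever library was left out, at a limma adjusted p of 0.0361 or lower.

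Gulo, which catalyses the last step of vitamin C synthesis, had 0.962, 4.58 and 5.55 in U-OEx LE and 287, 451 and 1119.9 in E-OEX LE, a difference of -6.99 ± 0.67, limma adjusted p = 0.00335. Hydin, a protein of the central apparatus of motile cilia, had 0.962, 0 and 5.55 in U-OEx LE and 104, 236 and 381 in E-OEX LE, a difference of -6.50 ± 0.79, limma adjusted p = 0.00419. Sult1d1, a cytosolic sulfotransferase, had 7.70, 26.5 and 9.25 in U-OEx LE and 655, 402 and 2442 in E-OEX LE. The difference of Sult1d1 was -6.00 ± 0.72, limma adjusted p = 0.00419, and in all 3 genes the groups were far apart. The phosphatase subunit Ppp2r2c (0, 14.6 and 1.85 in U-OEx LE, 144, 1093 and 489.9 in E-OEX LE), the Kelch protein Klhl31 (3.85, 7.32 and 0 against 146, 175 and 238) and the cytochrome P450 Cyp4x1 (8.66, 5.49 and 7.40 against 284, 204 and 1103) were also lower, with differences of -6.91, -5.74 and -5.63. Chst10, which sulfates glycans, Slc51a, an organic solute transporter subunit, and Sybu, a kinesin adaptor, varied widely within E-OEX LE. Their E-OEX LE values were 159, 45.8 and 2089 for Chst10, 176, 21.2 and 2319 for Slc51a and 48.7, 27.9 and 628 for Sybu, and replicate 3 was the highest each time. Gulo, Hydin, Sult1d1, Ppp2r2c, Klhl31 and Cyp4x1 passed whichever library was left out, whereas the limma adjusted p of the other calls in these sentences rose to between 0.0858 and 0.144 at its highest.

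**Figure D3:**
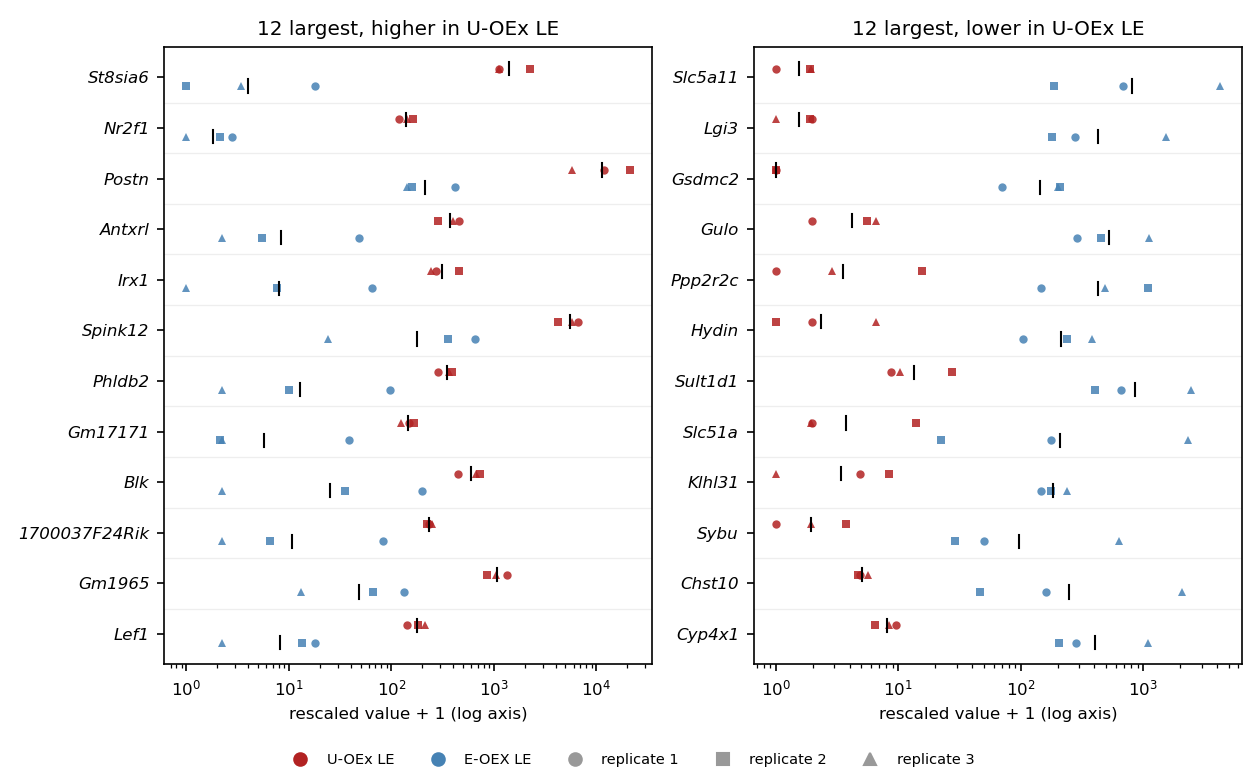
Rescaled value + 1 on a log axis for the 12 non-overlapping calls with the largest differences in each direction among genes with a mean of at least 100 in the higher group, in 3 U-OEx LE and 3 E-OEX LE libraries (symbols mark the replicate, short bars the geometric mean of value + 1 per group). No gene shown has overlapping groups, and the E-OEX LE points spread more widely, with replicate 1 the highest of them in each gene of the left panel.

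Several secreted defence proteins were higher in U-OEx LE. In the mucosal defence list, 13 of 42 genes were listed in both sets of tables, 13 were tested, 3 were higher in U-OEx LE and 2 were lower (38.5% called, median difference 1.74). Ltf, lactoferrin, an iron-binding protein that estrogen induces in the uterus, had 133630, 130200 and 60360 in U-OEx LE and 37087, 16586 and 25104 in E-OEX LE, a difference of 2.03 ± 0.43, limma adjusted p = 0.0194. Lcn2, which binds bacterial siderophores, had 104270, 50422 and 81892 in U-OEx LE and 37226, 3748 and 1624 in E-OEX LE, a difference of 3.63 ± 0.97, limma adjusted p = 0.0392. Hp, haptoglobin, had 8714, 5921 and 6249 in U-OEx LE and 2326, 313 and 53.6 in E-OEX LE, a difference of 4.33 ± 1.09, limma adjusted p = 0.0335. All U-OEx LE values of these 3 genes were above all E-OEX LE values, and E-OEX LE replicate 1 was the highest of its group in each. Muc4, a membrane mucin, had 29937, 17951 and 21581 in U-OEx LE and 14055, 4596 and 2365 in E-OEX LE, a difference of 2.08 ± 0.59, limma adjusted p = 0.0464. The summed value of the mucosal defence genes tested was 187670 to 289280 in U-OEx LE and 27387 to 102200 in E-OEX LE. Ltf and Lcn2 together made most of that sum in every library. Ang4, an angiogenin-family ribonuclease, went the other way with 4.81, 6.41 and 3.70 in U-OEx LE and 55.0, 23.5 and 190.1 in E-OEX LE, a difference of -3.45 ± 0.76, limma adjusted p = 0.0217, as did Gsdmc2. Of these calls, Gsdmc2 held without any 1 of the 6 libraries, and the others reached a limma adjusted p of between 0.102 and 0.17 in at least 1 such fit.

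The estrogen-induced genes split by member. Of the list, 19 of 35 genes were listed in both sets of tables, 19 were tested, 3 were higher in U-OEx LE and 3 were lower (31.6% called, median difference 0.50). Ltf, Lcn2 and Muc4 were higher, while Clca1 and Clca2, regulators of chloride conductance, and Wfdc2, a secreted whey acidic protein, were lower. Clca1 had 2182, 1771 and 1471 in U-OEx LE and 7933, 5441 and 11852 in E-OEX LE, a difference of -2.16 ± 0.36, limma adjusted p = 0.00979. Wfdc2 had 9212, 11939 and 7909.5 in U-OEx LE and 24296, 26410 and 31392 in E-OEX LE, a difference of -1.51 ± 0.30, limma adjusted p = 0.0158. Neither of those overlapped between the groups. Clca2 had no read in U-OEx LE and 2.70, 5.58 and 14.6 in E-OEX LE, which is at least 2.72-fold lower (limma adjusted p = 0.028), or at least 1.48-fold without E-OEX LE replicate 3. No call named here held with each library left out in turn, the highest limma adjusted p being between 0.0662 and 0.17.

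Among the calls in genes of luminal receptivity, most were lower in U-OEx LE. Of the list, 25 of 39 genes were listed in both sets of tables, 24 were tested, 2 were higher in U-OEx LE and 6 were lower (33.3% called, median difference -0.42). Calb1, the calcium-binding protein calbindin, had 266, 260 and 202 in U-OEx LE and 4116, 1655 and 10925 in E-OEX LE, a difference of -4.12 ± 0.60, limma adjusted p = 0.00638. S100g, a smaller calcium-binding protein, had 114, 102 and 90.7 in U-OEx LE and 454, 283 and 2218 in E-OEX LE, a difference of -2.68 ± 0.68, limma adjusted p = 0.0338. Lpar3, a lysophosphatidic acid receptor needed for normal embryo spacing, had 289, 317 and 207 in U-OEx LE and 1194, 1007 and 3390.2 in E-OEX LE, a difference of -2.58 ± 0.48, limma adjusted p = 0.0133. In all 3 the E-OEX LE values lay above the U-OEx LE values, and E-OEX LE replicate 3 was the highest. Fgf18, a fibroblast growth factor, also was lower, with 6.74, 46.7 and 11.1 in U-OEx LE and 73.9, 392 and 91.4 in E-OEX LE and a difference of -3.08 ± 0.84, limma adjusted p = 0.041. Cnr1, the cannabinoid receptor, was at the floor in E-OEX LE and at least 5.14-fold higher in U-OEx LE, where it had 7.70, 35.7 and 6.48 (limma adjusted p = 0.0471), or at least 2.19-fold without U-OEx LE replicate 2. Calb1 passed in every fit that left out 1 library, and the other calls named here reached a limma adjusted p of between 0.0806 and 0.159.

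Ptgs1 and Pla2g4a, enzymes of the first steps of prostaglandin synthesis, were lower in U-OEx LE. Ptgs1, cyclooxygenase 1, had 282, 483 and 432 in U-OEx LE and 2021, 2492 and 4828 in E-OEX LE, a difference of -2.89 ± 0.41, limma adjusted p = 0.00619. Pla2g4a, the phospholipase that releases arachidonic acid, had 1084, 826 and 689 in U-OEx LE and 2024, 3367 and 7434 in E-OEX LE, a difference of -2.12 ± 0.47, limma adjusted p = 0.0226. Hpgd, which inactivates prostaglandins, was higher, with 414, 225 and 371 in U-OEx LE and 177, 54.7 and 41.4 in E-OEX LE and a difference of 2.13 ± 0.57, limma adjusted p = 0.0394. No values overlapped in these 3 genes. Ptgs2, cyclooxygenase 2, which catalyses the same step as Ptgs1 and was added after its values were seen, had 3779, 2254 and 3757 in U-OEx LE and 2962, 409 and 604 in E-OEX LE. Its groups overlapped, and its difference of 1.82 did not pass (limma adjusted p = 0.0959). In the prostaglandin list, 14 of 26 genes were listed in both sets of tables, 14 were tested, 1 was higher in U-OEx LE and 2 were lower (21.4% called, median difference 0.19, or 0.07 with genes at the floor set to their bound). Ptgs1 passed whichever library was left out, whereas the limma adjusted p of the other calls in these sentences rose to between 0.112 and 0.158 at its highest.

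Fatty acid desaturation and elongation genes were lower in U-OEx LE. Of the sterol and fatty acid synthesis list, 15 of 39 genes were listed in both sets of tables, 15 were tested, 1 was higher in U-OEx LE and 5 were lower (40% called, median difference -1.10). The desaturase Scd1 had 118, 101 and 77.7 in U-OEx LE and 902, 848 and 359 in E-OEX LE, a difference of -2.73 ± 0.44, limma adjusted p = 0.00846. The desaturase Fads2 had 22.1, 22.9 and 36.1 in U-OEx LE and 231, 137 and 199.8 in E-OEX LE, a difference of -2.77 ± 0.43, limma adjusted p = 0.00739. The elongases Elovl5 and Elovl6 had differences of -2.08 (limma adjusted p = 0.0122) and -2.00 (limma adjusted p = 0.0252), and Acsl4, which activates arachidonic acid, -2.45 (limma adjusted p = 0.018). The lowest E-OEX LE value was above the highest U-OEx LE value in each of these 5 genes. None of these calls held whichever library was left out, and their highest limma adjusted p was between 0.0544 and 0.106.

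The lower genes with the highest values included metabolic and lysosomal enzymes, and those values are not divided by gene length. Bcat1, the cytosolic branched-chain amino acid transaminase, had 1582, 1706 and 1494 in U-OEx LE and 11305, 23817 and 38644 in E-OEX LE, a difference of -3.78 ± 0.44, limma adjusted p = 0.00407. Cndp2, a cytosolic dipeptidase, had 1393, 2943 and 1271 in U-OEx LE and 10389, 23964 and 28095 in E-OEX LE, a difference of -3.46 ± 0.47, limma adjusted p = 0.00592. Both calls held under every alternative, and neither gene had overlapping values. Ctsd, the lysosomal protease cathepsin D, had 5009.5, 3712 and 4450.3 in U-OEx LE and 22706, 12140 and 94364 in E-OEX LE, a difference of -2.77 ± 0.65, limma adjusted p = 0.027. Enpp3, an ectonucleotide pyrophosphatase, had 2188, 2326 and 1456 in U-OEx LE and 4732, 9429.6 and 24053 in E-OEX LE, a difference of -2.39 ± 0.55, limma adjusted p = 0.0246. In both genes E-OEX LE replicate 3 was the highest, and the U-OEx LE values lay below all 3 of E-OEX LE. Of the cathepsin and membrane peptidase list, 11 of 28 genes were listed in both sets of tables, 10 were tested, 2 were higher in U-OEx LE and 1 was lower (30% called, median difference 0.50). Ctse and Ctss, cathepsins of endosomes and of antigen-presenting cells, were the higher ones, with 178, 219.7 and 509 in U-OEx LE and 57.7, 27.9 and 21.9 in E-OEX LE for Ctse and 1066, 731 and 1232 in U-OEx LE and 455, 434 and 291 in E-OEX LE for Ctss. Their differences were 3.01 (limma adjusted p = 0.0126) and 1.35 (limma adjusted p = 0.0358). Bcat1 and Cndp2 stayed past the threshold whichever library was left out, and the highest limma adjusted p of the other calls named here was between 0.0662 and 0.145 with 1 library left out.

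Transporter genes differed in both directions. Of the solute carrier list, 90 of 338 genes were listed in both sets of tables, 83 were tested, 10 were higher in U-OEx LE and 13 were lower (27.7% called, median difference -0.20, or -0.07 with genes at the floor set to their bound). Slc5a9, a sodium-coupled sugar transporter, had 3518, 2491 and 2539 in U-OEx LE and 509, 217 and 271 in E-OEX LE, a difference of 3.18 ± 0.39, limma adjusted p = 0.00419. Slc34a2, a sodium-phosphate cotransporter, had 12035, 6221 and 7655 in U-OEx LE and 3339, 877 and 266 in E-OEX LE, a difference of 3.17 ± 0.78, limma adjusted p = 0.0311. Both were higher without overlap, as were the nucleoside transporter Slc28a2 (2.59, limma adjusted p = 0.0106) and the sodium-proton exchanger Slc9a7 (3.46, limma adjusted p = 0.0246). On the lower side, Slc13a5, the citrate transporter, had no read in U-OEx LE and 18.0, 31.3 and 240.1 in E-OEX LE, which is at least 34.4-fold lower (limma adjusted p = 0.00822), or at least 8.79-fold without E-OEX LE replicate 3. The zinc transporter Slc39a2 had 126, 196 and 145 in U-OEx LE and 669.7, 1042 and 1388 in E-OEX LE, a difference of -2.68 ± 0.38, limma adjusted p = 0.00619. Slc6a15, an amino acid transporter, and Slc16a12, a monocarboxylate transporter family member, differed by -4.83 (limma adjusted p = 0.0112) and -4.18 (limma adjusted p = 0.0221). Of the carriers named, the lower ones included those for inositol, citrate and zinc, and the higher ones those for sugar, phosphate and nucleosides. Whether the direction goes with the substrate was not tested. Slc5a9 passed in every fit that left out 1 library, and the other calls named here reached a limma adjusted p of between 0.0508 and 0.133.

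Calls in ion and water channel genes were equal in number in both directions. In that list, 73 of 195 genes were listed in both sets of tables, 64 were tested, 6 were higher in U-OEx LE and 6 were lower (18.8% called, median difference -0.17, or -0.08 with genes at the floor set to their bound). Aqp4, a water channel, had 9172, 3392 and 4716 in U-OEx LE and 1217, 238 and 1203 in E-OEX LE, a difference of 2.90 ± 0.65, limma adjusted p = 0.0235. Scnn1b, a subunit of the epithelial sodium channel, had 4866, 3252 and 2762 in U-OEx LE and 1485, 348 and 430.2 in E-OEX LE, a difference of 2.54 ± 0.54, limma adjusted p = 0.0196. Neither overlapped. The inward rectifier Kcnj2, the cation channel Trpv2 and the calcium channel subunit Cacna1e were also higher, by 3.34, 3.18 and 3.37. The potassium channel genes Kcnb2, Kcne1 and Kcnip2 were lower, with differences of -4.44 (limma adjusted p = 0.00739), -2.51 (limma adjusted p = 0.02) and -3.19 (limma adjusted p = 0.027). Each call named here was lost in at least 1 fit without a library, at a limma adjusted p of between 0.0522 and 0.171.

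Glycan-building enzymes differed in both directions. Of the mucin and glycan list, 48 of 121 genes were listed in both sets of tables, 47 were tested, 4 were higher in U-OEx LE and 6 were lower (21.3% called, median difference -0.26). Gcnt3 and Gcnt4, branching enzymes of mucin-type glycans, differed in opposite directions. Gcnt3 had 155, 94.3 and 97.2 in U-OEx LE and 1965, 1743 and 6198 in E-OEX LE, a difference of -4.61 ± 0.51, limma adjusted p = 0.00335. Gcnt4 was 33.7, 23.8 and 34.2 in U-OEx LE and had no read in E-OEX LE, which is at least 9.44-fold higher (limma adjusted p = 0.00335). Galnt6, which starts mucin-type glycans, was higher by 1.94 (limma adjusted p = 0.0133). The sulfotransferases Chst9, Chst10 and Hs3st6 were lower, with differences of -3.76 (limma adjusted p = 0.0147), -5.63 (limma adjusted p = 0.0181) and -3.44 (limma adjusted p = 0.0106). B4galt6, a lactosylceramide synthase, differed by -1.36 (limma adjusted p = 0.0471). Of these calls, Gcnt3 and Gcnt4 held without any 1 of the 6 libraries, and the others reached a limma adjusted p of between 0.0647 and 0.173 in at least 1 such fit.

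In the matrix list, 89 of 133 genes were listed in both sets of tables, 79 were tested, 4 were higher in U-OEx LE and 6 were lower (12.7% called, median difference 0.08, or 0.00 with genes at the floor set to their bound). Beside Postn, the higher genes were collagens. Col25a1 had 41.4, 13.7 and 63.9 in U-OEx LE and no read in E-OEX LE, which is at least 12.2-fold higher (limma adjusted p = 0.00522). Col15a1 and Col23a1 differed by 2.17 (limma adjusted p = 0.0269) and 1.65 (limma adjusted p = 0.0487). The lower genes included the laminin chain Lamb1, with 22.1, 54.9 and 48.1 in U-OEx LE and 210, 1423 and 388 in E-OEX LE and a difference of -3.61 ± 0.69, limma adjusted p = 0.015, and the basement membrane collagen Col4a4, with 15.4, 64.1 and 27.8 in U-OEx LE and 243, 474 and 333 in E-OEX LE and a difference of -3.43 ± 0.56, limma adjusted p = 0.00856. The fibrillin Fbn2, the fibulin Fbln5 and the procollagen protease Adamts2 differed by -3.18 (limma adjusted p = 0.009), -2.94 (limma adjusted p = 0.0358) and -2.40 (limma adjusted p = 0.0409). Among claudins, keratins and cadherins, 41 of 110 genes were listed in both sets of tables, 40 were tested, 2 were higher in U-OEx LE and 3 were lower (12.5% called, median difference -0.73, or -0.48 with genes at the floor set to their bound). Cdh4, a classical cadherin, had 19.2, 104 and 20.4 in U-OEx LE and 498, 1435 and 686 in E-OEX LE, a difference of -4.47 ± 0.69, limma adjusted p = 0.00739. Cgnl1, a tight junction protein, had the smallest difference named here, at 0.998 ± 0.29, limma adjusted p = 0.0499, and Dsg3, a desmosomal cadherin, was higher by 3.52 (limma adjusted p = 0.018). Col25a1 and Postn stayed past the threshold whichever library was left out, and the highest limma adjusted p of the other calls named here was between 0.0544 and 0.2 with 1 library left out.

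Several semaphorins, guidance molecules for axons and vessels, differed between the groups. Of the axon guidance list, 36 of 75 genes were listed in both sets of tables, 34 were tested, 4 were higher in U-OEx LE and 7 were lower (32.4% called, median difference 0.05, or 0.02 with genes at the floor set to their bound). The secreted class 3 members Sema3a, Sema3e and Sema3g were lower in U-OEx LE. Sema3a had 49.1, 39.4 and 27.8 in U-OEx LE and 303, 733 and 689 in E-OEX LE, a difference of -3.79 ± 0.46, limma adjusted p = 0.00419. Sema3e and Sema3g differed by -4.12 (limma adjusted p = 0.015) and -4.59 (limma adjusted p = 0.0191). The transmembrane class 6 members Sema6b and Sema6d were higher, with 306, 90.6 and 416 in U-OEx LE and 76.6, 5.58 and 12.2 in E-OEX LE for Sema6b and 550.4, 439 and 524 in U-OEx LE and 131, 147 and 157 in E-OEX LE for Sema6d. Their differences were 3.59 (limma adjusted p = 0.0351) and 1.79 (limma adjusted p = 0.0118). Whether the classes differ was not tested. The netrin Ntn1 (1116, 904 and 762 in U-OEx LE and 418, 260.2 and 183 in E-OEX LE) and the ephrin receptor Epha7 (258, 233 and 176 in U-OEx LE and 56.8, 27.9 and 9.75 in E-OEX LE) were higher, with differences of 1.75 (limma adjusted p = 0.0219) and 3.07 (limma adjusted p = 0.0158). Sema3a passed in every fit that left out 1 library, and the other calls named here reached a limma adjusted p of between 0.0833 and 0.146.

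Receptors that signal through G proteins included genes of uterine contraction and of adrenergic response. Of the list of subunits, regulators and receptors, 71 of 183 genes were listed in both sets of tables, 64 were tested, 12 were higher in U-OEx LE and 5 were lower (26.6% called, median difference 1.08, or 0.46 with genes at the floor set to their bound). Oxtr, the oxytocin receptor, had 546, 1084 and 287 in U-OEx LE and 39.7, 71.5 and 8.53 in E-OEX LE, a difference of 4.19 ± 0.77, limma adjusted p = 0.013. Ramp2 and Ramp3, partners of the calcitonin-like receptor, were higher by 3.24 (limma adjusted p = 0.0106) and 3.30 (limma adjusted p = 0.0381). The adenosine receptor Adora2b was at least 14.7-fold higher (limma adjusted p = 0.0345), or at least 10.7-fold without U-OEx LE replicate 1. Rescaled together with wild-type LE, Adora2b had 68.0, 4.89 and 59.9 in U-OEx LE and 0.835, 2.97 and 0 in E-OEX LE. U-OEx LE replicate 2 was thus close to E-OEX LE. The adrenergic receptor genes Adrb1, Adra2a and Adra2c were lower, with 0, 12.8 and 3.70 in U-OEx LE and 101, 149 and 299.8 in E-OEX LE for Adrb1. Their differences were -5.37 (limma adjusted p = 0.0106), -2.96 (limma adjusted p = 0.0106) and -4.99 (limma adjusted p = 0.0221). Htr1b, a serotonin receptor, had no read in U-OEx LE and 18.9, 88.2 and 6.09 in E-OEX LE, and was at least 13.5-fold lower (limma adjusted p = 0.0158), or at least 4.46-fold without E-OEX LE replicate 2. Each call named here was lost in at least 1 fit without a library, at a limma adjusted p of between 0.0538 and 0.142.

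In the Wnt pathway list, 22 of 60 genes were listed in both sets of tables, 21 were tested, 4 were higher in U-OEx LE and none was lower (19.1% called, median difference 0.27, or 0.00 with genes at the floor set to their bound), and that share was near the 15% over all genes tested. Lef1 was described above. The receptor Fzd7 had 881, 658 and 790.3 in U-OEx LE and 385, 293 and 136 in E-OEX LE, a difference of 1.63 ± 0.43, limma adjusted p = 0.0368. Lgr6, a receptor for R-spondins, had 72.2, 151 and 22.2 in U-OEx LE and 10.8, 2.23 and 2.44 in E-OEX LE, a difference of 3.65 ± 0.82, limma adjusted p = 0.0234. The ligand Wnt10b was at least 3.17-fold higher (limma adjusted p = 0.0345), with 7.70, 8.24 and 14.8 in U-OEx LE. In the TGF-beta and BMP list, 28 of 60 genes were listed in both sets of tables, 27 were tested, 3 were higher in U-OEx LE and 3 were lower (22.2% called, median difference 0.15, or 0.00 with genes at the floor set to their bound). Tgfb1 and Tgfb2, the ligands, and Inha, the inhibin alpha subunit, were higher by 1.58 (limma adjusted p = 0.0326), 2.54 (limma adjusted p = 0.0303) and 3.05 (limma adjusted p = 0.0146). Bmp5, a BMP ligand, and Id2 and Id4, which BMP signals induce, were lower. Bmp5 had 11.5, 3.66 and 6.48 in U-OEx LE and 95.5, 210 and 172 in E-OEX LE, a difference of -4.32 ± 0.56, limma adjusted p = 0.00497. Id2 had 519, 681 and 659.8 in U-OEx LE and 1763, 3033 and 4453 in E-OEX LE, a difference of -2.22 ± 0.39, limma adjusted p = 0.0108, and Id4 differed by -2.11 (limma adjusted p = 0.0196). The E-OEX LE values of all 3 lay above those of U-OEx LE. Of these calls, Bmp5 held without any 1 of the 6 libraries, and the others reached a limma adjusted p of between 0.0652 and 0.149 in at least 1 such fit.

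Of the Hox, Fox and Sox list, which also holds other developmental factors, 51 of 124 genes were listed in both sets of tables, 44 were tested, 6 were higher in U-OEx LE and 2 were lower (18.2% called, median difference 0.42, or 0.33 with genes at the floor set to their bound). Of its genes named here, Sox5 had the largest downward difference, with 8.66, 30.2 and 24.1 in U-OEx LE and 394, 348 and 1639 in E-OEX LE and a difference of -4.96 ± 0.69, limma adjusted p = 0.00592. Foxq1, a forkhead factor, was higher, with 346, 449 and 288 in U-OEx LE and 115, 107 and 29.2 in E-OEX LE and a difference of 2.30 ± 0.55, limma adjusted p = 0.0284. Foxs1 and Sox8 were higher by 3.53 (limma adjusted p = 0.0366) and 3.60 (limma adjusted p = 0.0315), and Foxi3 was at least 4.16-fold lower (limma adjusted p = 0.0173), or at least 2.05-fold without E-OEX LE replicate 2. Among steroid receptor and progesterone response genes, 18 of 35 genes were listed in both sets of tables, 17 were tested, 1 was higher in U-OEx LE and 2 were lower (17.6% called, median difference -0.40). Cyp26a1, which degrades retinoic acid, had 5.77, 0.915 and 6.48 in U-OEx LE and 100, 152 and 749 in E-OEX LE, a difference of -5.62 ± 0.85, limma adjusted p = 0.00708. Gli1, a target of hedgehog signalling, was lower, with a difference of -3.24, limma adjusted p = 0.049, and had 0, 0 and 8.33 in U-OEx LE and 12.6, 33.5 and 15.8 in E-OEX LE. Sox5 and Cyp26a1 stayed past the threshold whichever library was left out, and the highest limma adjusted p of the other calls named here was between 0.0833 and 0.18 with 1 library left out.

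Most calls in chemokine, cytokine and receptor genes were higher in U-OEx LE. Of this list, 59 of 198 genes were listed in both sets of tables, 55 were tested, 9 were higher in U-OEx LE and 2 were lower (20% called, median difference 0.82, or 0.53 with genes at the floor set to their bound). Il17rb, a receptor for interleukin-25, and Il20ra were the lower genes. Il17rb had 443, 504 and 354 in U-OEx LE and 3125, 4864 and 12748 in E-OEX LE, a difference of -3.75 ± 0.50, limma adjusted p = 0.00522. Ccr7, a chemokine receptor of lymphocytes and dendritic cells, had no read in E-OEX LE and 13.5, 19.2 and 10.2 in U-OEx LE, which is at least 4.41-fold higher (limma adjusted p = 0.0062). The interleukin-6 receptor Il6ra, the costimulatory receptor Tnfrsf9 and the chemokine Cxcl9 were also higher. Il6ra had 422, 196 and 532 in U-OEx LE and 121, 41.3 and 24.4 in E-OEX LE, a difference of 2.80 ± 0.63, limma adjusted p = 0.0236. Tnfrsf9 differed by 3.03 (limma adjusted p = 0.049), and Cxcl9 was at least 8.08-fold higher (limma adjusted p = 0.0351). Il20ra, an interleukin-20 receptor chain, had 0, 0 and 2.78 in U-OEx LE and 18.9, 26.8 and 111 in E-OEX LE and was at least 18.6-fold lower (limma adjusted p = 0.0126), or at least 8.16-fold without E-OEX LE replicate 3. Il17rb and Ccr7 passed in every fit that left out 1 library, and the other calls named here reached a limma adjusted p of between 0.0775 and 0.179.

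Enzymes of foreign compound and steroid metabolism were mostly lower among those that passed. Here 62 of 172 genes were listed in both sets of tables, 58 were tested, 3 were higher in U-OEx LE and 11 were lower (24.1% called, median difference -0.46). Gstm3, a glutathione transferase, was at least 9.88-fold lower (limma adjusted p = 0.00979), and Cyp3a57 was at least 5.31-fold lower (limma adjusted p = 0.027). On the higher side were Cyp21a1, the steroid 21-hydroxylase, with 419, 429 and 553 in U-OEx LE and 118, 43.6 and 20.7 in E-OEX LE and a difference of 3.25 ± 0.59, limma adjusted p = 0.0125, and Cyp7b1, an oxysterol hydroxylase (2.67, limma adjusted p = 0.0314). The sulfotransferase Sult1c2 was higher by 3.07 (limma adjusted p = 0.0314), opposite to Sult1d1. Many of these genes belong to families with near-identical copies, and the authors' counting could have divided their reads. Of serine proteases and their inhibitors, 39 of 126 genes were listed in both sets of tables, 38 were tested, 5 were higher in U-OEx LE and 4 were lower (23.7% called, median difference 0.54). Serpinb2, an inhibitor of plasminogen activators, was at least 5.95-fold higher (limma adjusted p = 0.00619). Serpinf1 and Serpinh1, the latter a collagen chaperone, were lower, with differences of -1.68 (limma adjusted p = 0.0275) and -1.68 (limma adjusted p = 0.0318), and Serpina3i and the membrane protease Prss27 were higher by 4.40 (limma adjusted p = 0.0453) and 2.21 (limma adjusted p = 0.0314). Sult1d1 and Serpinb2 passed whichever library was left out, whereas the limma adjusted p of the other calls in these sentences rose to between 0.0587 and 0.163 at its highest.

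The lists of cell cycle, stress, interferon, EGF family and gland marker genes held 1 or 2 calls each. Of the cell cycle list, 9 of 58 genes were listed in both sets of tables, 9 were tested, none was higher in U-OEx LE and 1 was lower (11.1% called, median difference 0.10), the lower gene being the cyclin-dependent kinase inhibitor Cdkn1c, with 42.3, 29.3 and 39.8 in U-OEx LE and 92.8, 112 and 134 in E-OEX LE and a difference of -1.58 ± 0.41, limma adjusted p = 0.0351. Of immediate early and heat shock genes, 33 of 35 genes were listed in both sets of tables, 33 were tested, 1 was higher in U-OEx LE and none was lower (3.03% called, median difference 0.39). The single call was Fos, with 4069, 3228 and 7068 in U-OEx LE and 1956, 1130.3 and 1336 in E-OEX LE and a difference of 1.66 ± 0.38, limma adjusted p = 0.0255. Of interferon-stimulated genes, 32 of 47 genes were listed in both sets of tables, 32 were tested, 1 was higher in U-OEx LE and none was lower (3.12% called, median difference 0.05), the higher gene being Cxcl9. Of the EGF family, 6 of 18 genes were listed in both sets of tables, 6 were tested, none was higher in U-OEx LE and 1 was lower (16.7% called, median difference -0.58), the lower gene being the receptor Erbb4, which was at least 7.17-fold lower (limma adjusted p = 0.0255), or at least 4.23-fold without E-OEX LE replicate 3. Of gland marker genes, 11 of 17 genes were listed in both sets of tables, 8 were tested, none was higher in U-OEx LE and 2 were lower (25% called, median difference -0.65), and the lower genes, Sult1d1 and Slc39a2, are described above. Unlike Sult1d1, Slc39a2 was higher in E-OEX LE than in E-OEX GE, with mean deposited values of 918 and 178. The defining gland markers Foxa2 and Cxcl15, given below, differed upward (2.26 and 2.12) and did not pass. Of these calls, Sult1d1 held without any 1 of the 6 libraries, and the others reached a limma adjusted p of between 0.0508 and 0.141 in at least 1 such fit.

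**Figure D4:**
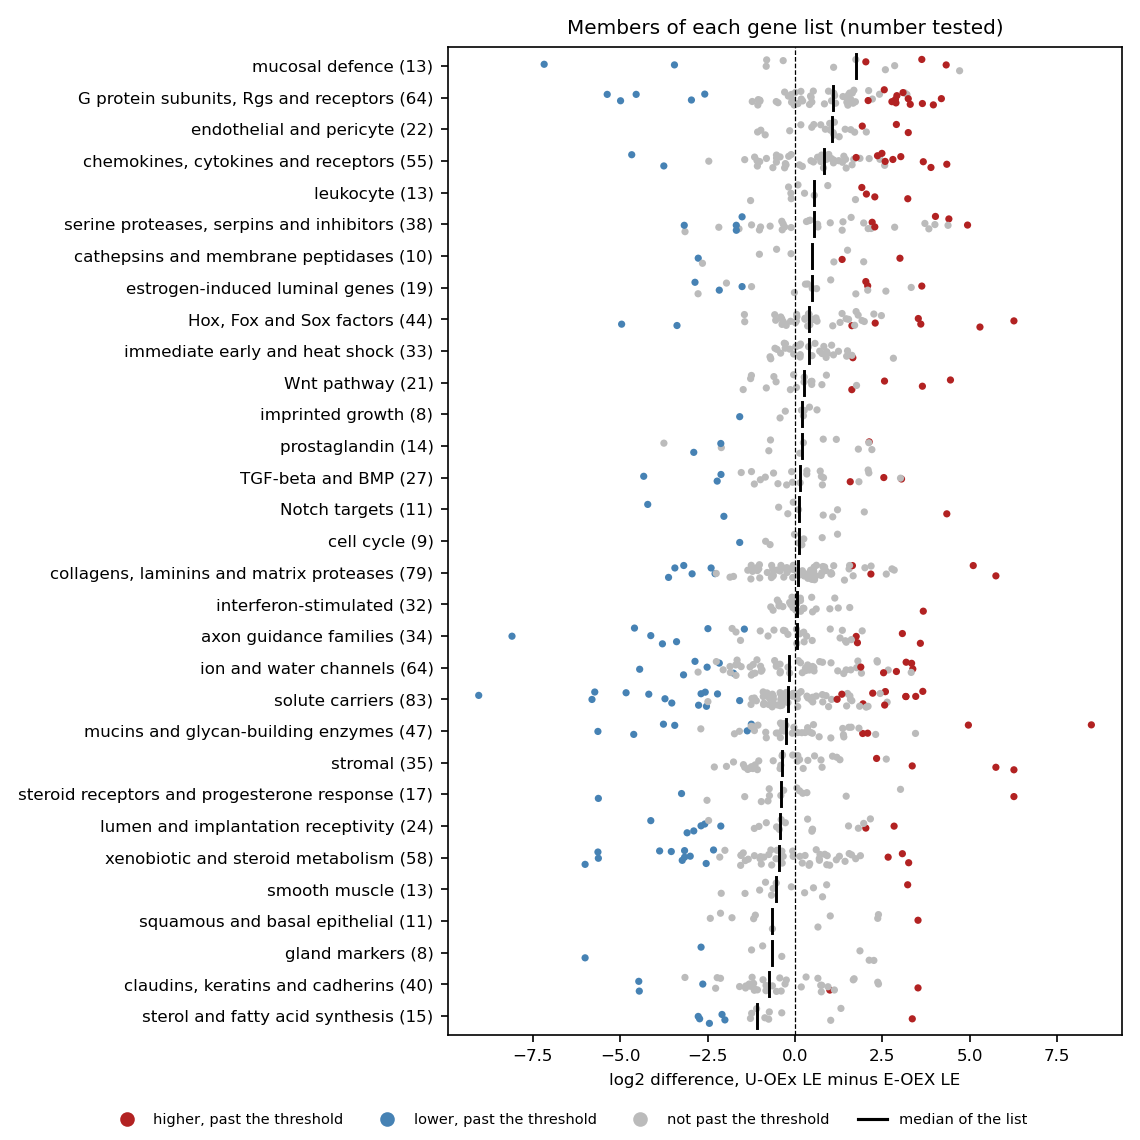
Each point is 1 tested gene, placed by its log2 difference (U-OEx LE minus E-OEX LE) in the row of its list, for the lists with 8 or more tested genes; vertical bars are list medians and colours mark the genes past the threshold. The medians run from 1.74 for mucosal defence to -1.10 for sterol and fatty acid synthesis, beside 0.06 over all genes tested, and most lists hold calls in both directions.

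The labelled tissue was checked against defining markers. Krt19, an epithelial keratin, had 18742, 26482 and 16296 in U-OEx LE and 26200, 26356 and 35045 in E-OEX LE, and Cdh1, the epithelial cadherin, had 8684, 8684 and 5418 in U-OEx LE and 13119, 14788 and 23541 in E-OEX LE. Their differences were -0.53 (limma adjusted p = 0.276) and -1.16 (limma adjusted p = 0.0561). Epcam, Krt8 and Krt18 were listed in the U-OEx tables only, with deposited values of 8279.7, 7420.3 and 5361 for Epcam, and they were not analysed in E-OEX LE. The luminal marker Wnt7a did not pass, with a difference of -0.82 (limma adjusted p = 0.34). The gland markers Foxa2 and Cxcl15 were detected in both groups and did not pass, with 709, 485 and 425 in U-OEx LE and 421, 51.4 and 59.7 in E-OEX LE for Foxa2, a difference of 2.26 (limma adjusted p = 0.0726), and 167, 141 and 67.6 in U-OEx LE and 62.2, 13.4 and 20.7 in E-OEX LE for Cxcl15, a difference of 2.12 (limma adjusted p = 0.0557). The summed value of 6 general epithelial genes was 37831 to 53432 in U-OEx LE and 62702 to 83683 in E-OEX LE.

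Some genes that mark stromal or smooth muscle cells passed. The share called in each of these lists was below the 15% over all genes tested. In the stromal list, 38 of 41 genes were listed in both sets of tables, 35 were tested, 4 were higher in U-OEx LE and none was lower (11.4% called, median difference -0.35, or -0.06 with genes at the floor set to their bound), and its summed value was 12471 to 24973 in U-OEx LE and 2198 to 7843 in E-OEX LE, of which Postn alone made 11758, 21460 and 5807 in U-OEx LE. Postn and Nr2f1 are on that list, and so are Zeb1 (2.34, limma adjusted p = 0.0396) and Zeb2 (3.36, limma adjusted p = 0.0216), regulators of the mesenchymal state. Its defining genes did not pass. Col1a1 had 127, 65.0 and 187 in U-OEx LE and 618, 270.3 and 99.9 in E-OEX LE, Dcn had 115, 132 and 852 in U-OEx LE and 653, 427 and 112 in E-OEX LE and Pdgfra had 18.3, 2.75 and 14.8 in U-OEx LE and 1.80, 11.2 and 6.09 in E-OEX LE, with differences of -1.14 (limma adjusted p = 0.274), -0.42 (limma adjusted p = 0.771) and 0.75 (limma adjusted p = 0.575). In the smooth muscle list, 14 of 18 genes were listed in both sets of tables, 13 were tested, 1 was higher in U-OEx LE and none was lower (7.69% called, median difference -0.53, or -0.10 with genes at the floor set to their bound), and its summed value was 497 to 707 in U-OEx LE and 628 to 907 in E-OEX LE. Acta2, smooth muscle actin, was the one that passed, with 128, 154 and 70.3 in U-OEx LE and 40.6, 11.2 and 2.44 in E-OEX LE and a difference of 3.23 (limma adjusted p = 0.0368), while Myh11, Cnn1 and Des differed by 0.79 (limma adjusted p = 0.492), -0.67 (limma adjusted p = 0.615) and -0.53 (limma adjusted p = 0.644). Cnn1 had a value of 0 in U-OEx LE replicate 2. Postn and Nr2f1 stayed past the threshold whichever library was left out, and the highest limma adjusted p of the other calls named here was between 0.115 and 0.148 with 1 library left out.

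In the endothelial and pericyte list, 24 of 26 genes were listed in both sets of tables, 22 were tested, 3 were higher in U-OEx LE and none was lower (13.6% called, median difference 1.05, or 0.81 with genes at the floor set to their bound). The share called in that list was near the 15% over all genes tested. Its summed value was 833 to 1157 in U-OEx LE and 342 to 499.6 in E-OEX LE. Pecam1, an endothelial adhesion molecule that leukocytes also carry, had 125, 51.3 and 116 in U-OEx LE and 13.5, 12.3 and 8.53 in E-OEX LE, a difference of 2.90 (limma adjusted p = 0.0122), while the endothelial cadherin Cdh5 differed by 0.74 (limma adjusted p = 0.458) and Kdr by 1.12 (limma adjusted p = 0.228). Ramp2 and Emcn were the other calls, and Emcn had at most 3 reads in each library of both groups, so that call is not read as a difference. In the leukocyte list, 14 of 40 genes were listed in both sets of tables, 13 were tested, 4 were higher in U-OEx LE and none was lower (30.8% called, median difference 0.56, or 0.28 with genes at the floor set to their bound), and the summed value was 2137 to 3062 in U-OEx LE and 596 to 981 in E-OEX LE. Itgam, an integrin of myeloid cells, had 1041, 562 and 1097 in U-OEx LE and 168, 65.9 and 68.2 in E-OEX LE, a difference of 3.23 ± 0.47, limma adjusted p = 0.00638, and the class II genes H2-Aa, H2-Ab1 and H2-Eb1 differed by 1.91 (limma adjusted p = 0.0143), 2.05 (limma adjusted p = 0.0283) and 2.29 (limma adjusted p = 0.0106). These 4 called genes made most of the summed value of the leukocyte list in each U-OEx LE library. Ptprc, Csf1r and Cd3e, the defining leukocyte genes, were listed in the U-OEx tables only (Ptprc deposited values 1569.6, 441 and 2705), so their levels in E-OEX LE were not analysed. The part of leukocyte, endothelial, stromal or muscle RNA in the Notch target (Il2ra among them), cytokine, G protein receptor, cathepsin and matrix results was not tested. With 1 library left out, the limma adjusted p of each of these calls rose to between 0.0544 and 0.133 at its highest.

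Single libraries stood apart for some other cell types. Krt5, a basal keratin, had 68.3, 1189 and 73.1 in U-OEx LE and 71.2, 43.6 and 12.2 in E-OEX LE, so U-OEx LE replicate 2 carried it alone, and the difference of 2.39 (limma adjusted p = 0.166) did not pass. The summed value of the squamous and basal list was 2939 to 5443 in U-OEx LE and 1745 to 5573 in E-OEX LE. Msln, a mesothelial marker, had 60.6, 41.2 and 389 in U-OEx LE and 251, 147 and 43.9 in E-OEX LE, and U-OEx LE replicate 3 was the highest. The summed value of the mesothelial list was 193 to 1256 in U-OEx LE and 329 to 988 in E-OEX LE, and none of its 7 tested genes passed. For the 3 blood genes tested the sum was 16.4 to 65.0 in U-OEx LE and 14.5 to 28.8 in E-OEX LE, with none past the threshold. Among ciliated cell genes, 6 of 18 genes were listed in both sets of tables, 6 were tested, none was higher in U-OEx LE and none was lower (none called, median difference -1.25), and Foxj1, their defining factor, had 6.74, 24.7 and 2.78 in U-OEx LE and 17.1, 29.0 and 26.8 in E-OEX LE, a difference of -1.44 (95% confidence interval -3.13 to 0.24, limma adjusted p = 0.214). Hydin, the ciliary gene that was lower in U-OEx LE, is not on that list.

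The direction of the calls went with the side of the uterine epithelium on which a gene was higher in E-OEX mice. Of 2510 tested genes higher in E-OEX GE than in E-OEX LE, 199 (7.93%) were higher in U-OEx LE and 98 (3.90%) were lower, with a median difference of 0.28. Of 1765 tested genes higher in E-OEX LE, 99 (5.61%) were higher in U-OEx LE and 246 (13.9%) were lower, with a median of -0.24. The E-OEX LE libraries enter both sides of this description, since they chose the gene list and also form one arm of the comparison. A high value in E-OEX LE therefore counts toward both, and the split is given as values with no test.

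Wild-type LE libraries were set beside both groups for genes that their tables also list. Those tables hold 6414 genes, which may likewise have been selected for a difference between GE and LE, and this was not tested. The 9 LE libraries were rescaled together over the 2819 genes listed in all 3 kinds of table, so these values differ slightly from those above. Of the 199 genes higher in U-OEx LE that these tables also list, the wild-type mean was below both groups in 108, between them in 84 and above both in 7. Of the 261 lower genes it was above both in 151, between them in 100 and below both in 10. The genes described next were chosen after their values were seen. Hey1 had 866, 1201 and 898 in U-OEx LE, 1009.9, 1999 and 1162 in E-OEX LE and 37.8, 108 and 191 in wild-type LE. Heyl had 129.8, 687 and 84.3 in U-OEx LE, 113, 226 and 51.7 in E-OEX LE and 3.78, 5.26 and 3.92 in wild-type LE. Both overexpressing groups were above wild type in these Notch targets, in every library. Hey2 had 17.9, 17.1 and 13.9 in U-OEx LE, 242, 165 and 756 in E-OEX LE and 335, 152 and 319.8 in wild-type LE, so that E-OEX LE and wild-type LE overlapped while U-OEx LE was lower than both. Dtx1 had 157, 132 and 123 in U-OEx LE, 51.0, 35.7 and 8.80 in E-OEX LE and 12.6, 31.6 and 11.7 in wild-type LE, and there U-OEx LE stood apart while the other groups overlapped.

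Of the genes that U-OEx LE had more of, Ltf had 124350, 116020 and 56665 in U-OEx LE, 34371, 14720 and 22665 in E-OEX LE and 2942, 428 and 667 in wild-type LE. Slc34a2 had 11199, 5544 and 7186 in U-OEx LE, 3095, 778 and 239.9 in E-OEX LE and 3.78, 4.21 and 3.92 in wild-type LE. In Ltf and Slc34a2 the groups were ordered wild type, E-OEX LE, U-OEx LE without overlap. St8sia6 had 1043, 1997 and 1059 in U-OEx LE, 15.9, 0 and 2.20 in E-OEX LE and 0, 0 and 1.31 in wild-type LE, and Nr2f1 had 109, 144 and 131 in U-OEx LE, 1.67, 0.991 and 0 in E-OEX LE and 2.52, 0 and 0 in wild-type LE. For both, wild-type LE was at the floor along with some or all E-OEX LE libraries. Postn had 10941, 19123 and 5451 in U-OEx LE, 385, 139 and 129 in E-OEX LE and 0, 21.0 and 18.3 in wild-type LE, again with wild-type LE lowest.

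Of the genes lower in U-OEx LE, Calb1 had 247, 232 and 189 in U-OEx LE, 3815, 1469 and 9864 in E-OEX LE and 54719, 18296 and 41784 in wild-type LE. Il17rb had 412, 449 and 333 in U-OEx LE, 2896, 4317 and 11510 in E-OEX LE and 19461, 46170 and 43302 in wild-type LE. Ctsd had 4661, 3308 and 4178 in U-OEx LE, 21044, 10774 and 85199 in E-OEX LE and 235640, 254510 and 293310 in wild-type LE. In these genes the order was reversed, with wild-type LE highest, E-OEX LE between and U-OEx LE lowest. Gulo had 0.895, 4.08 and 5.21 in U-OEx LE, 266, 400.4 and 1011 in E-OEX LE and 1731, 575 and 1559.7 in wild-type LE, and Slc39a2 had 117, 175 and 136 in U-OEx LE, 621, 925 and 1253 in E-OEX LE and 1164, 995 and 1432 in wild-type LE. For both, the E-OEX LE and wild-type values overlapped. Sema3a followed neither order, with 45.7, 35.1 and 26.1 in U-OEx LE, 281, 650.2 and 622 in E-OEX LE and 56.7, 32.6 and 32.6 in wild-type LE: E-OEX LE was the highest, and U-OEx LE overlapped with wild type.

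**Figure D5:**
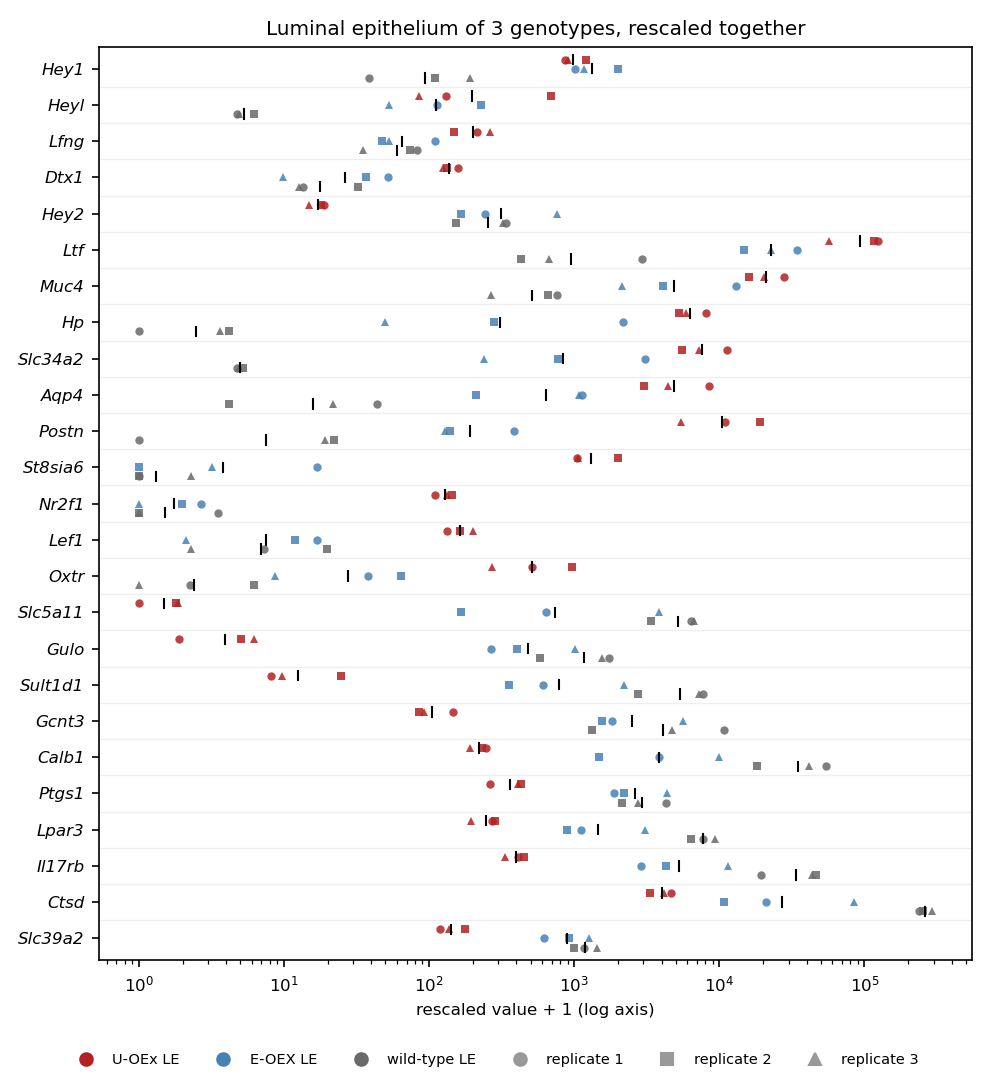
Rescaled value + 1 on a log axis for 25 genes in 3 U-OEx LE, 3 E-OEX LE and 3 wild-type LE libraries rescaled together (symbols mark the replicate, short bars the geometric mean of value + 1 per group). In Ltf, Hp, Slc34a2 and Postn wild-type LE is lowest and U-OEx LE highest, and in Calb1, Lpar3, Il17rb and Ctsd the order is reversed.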

How the data were processed

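RNA from luminal epithelium was sequenced after purification with an RNeasy kit and library construction with NEBNext Ultra, per the labels' protocols. The builds GRCm38 and mm10 are named per the submitters' processing notes. The aligner, counter, annotation, strand setting and scaling are not given in the sources used here. The deposited values are a signal, scaled read counts: in each library 100% of the values were whole multiples (tolerance 0.01) of its smallest positive value, and those multiples were taken as reads. Gene symbols are those of the deposited tables, and gene positions come from GENCODE M21 (GRCm38).

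Reads of the 4676 genes in both sets of tables were rescaled with TMM (edgeR 4.0.16; factors 0.821 to 1.109). Because the deposited values are scaled, the main test was limma 3.58.1 (lmFit, eBayes with trend, R 4.3.3) on log2(value + 1), mean value at least 1, 3 libraries against 3, with Benjamini-Hochberg adjustment at 0.05. edgeR's quasi-likelihood test and DESeq2 1.42.0 on the recovered reads were alternatives. An exact permutation test of 3 against 3 cannot go below 0.1. The fits were also run on simulated counts with the same spread in both groups. The real groups differ in spread, so that run does not show how well these calls hold. A group with 3 or fewer reads in every library was at the floor. A fold against it divides the mean of the other group by the value of 3 reads. That is a lower bound for the floored side only and leaves out the spread of the other group. Replicates were compared by chi-square per degree of freedom (43.1 to 173.7 within groups), so none repeated another. Fold changes on this scale understate those of low genes.

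Named genes were the 12 largest non-overlapping calls per direction with a higher-group mean of at least 100, the 6 calls with the highest values per direction, all tested Notch genes, and up to 5 calls a direction for each gene list (or its 3 highest members where none passed). The groups, members and lists were chosen with earlier results of these data known, so no list is independent evidence. Genes compared with wild type for context were chosen after their values were seen. Some genes that this rule names are not reported here.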

Additional observations from a re-analysis of the deposited data

How the results depend on the processing

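Each named call kept its direction in every one of the 21 alternatives that tested the gene, and 54 of the 642 calls passed in each alternative that tested them. With no filter on low values 286 genes passed (122 higher, 164 lower in U-OEx LE). Higher calls numbered 176 with edgeR, 195 in a fit over the 9 LE libraries, which tested 2595 genes, and 488 with the E-OEX GE libraries in the fit, and lower calls numbered 531 with DESeq2. edgeR called 477 genes, 36.9% of them higher, against 46.4% in limma. With 1 library left out, the calls ranged from 60 to 904, the higher calls from 17 to 507 and the lower calls from 43 to 397; the cause was not tested. On the deposited scale the median of all genes moved to 0.19, and scaled by the sum over the shared genes to 0.17, with 583 and 642 calls. Without the unannotated transcripts, an alternative chosen after seeing the data because their names may not mean the same transcript in both sets of tables, 594 genes passed.

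Replicate numbers 1 to 3 occur in both groups. Deviations of same-numbered libraries correlated at 0.0801, 0.134 and -0.158, so the numbers were not taken as pairs. A fit with the replicate block called 612 genes (298 higher, 314 lower), 529 of them shared with the fit without it, and not every library correlated best with its own number. Depth limits the low genes: 401 shared genes were under the filter, and no fold is given where both groups have 3 reads or fewer. The bounds without 1 library were added after the values were seen.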
